A study of Mus musculus with 8 samples.

Results

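A set of 9 genes used as markers of striatum, septum and thalamus were followed in RNA from mouse medial prefrontal cortex. They are Prkcd, Zic1, Tcf7l2, Ppp1r1b, Drd2, Adora2a, Pde10a, Rgs9 and Adcy5, chosen by name as genes that neighbouring subcortical tissue expresses strongly. The choice was made with earlier results of these data known, so high values on particular arrays are no independent finding. They make up 9 of the 19057 genes named on the array, and 8 of the 9 have at least 1 probe. Every probe named for a member was taken, 17 in all, and 11 of these, standing for 7 genes, were detected widely enough to be tested.

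The samples were Illumina bead arrays of RNA from bilateral medial prefrontal cortex of male mice aged 10 weeks, collected as a 1 mm tissue punch. In the IMO group (4 arrays, replicates 1 to 4) the mice had been held immobile for 2 h, and tissue was taken 6 days later. The No stress group (4 arrays, replicates 5 to 8) was not immobilized. The labels give no strain, and whether the arrays stand for separate animals is not stated there, so that p-values reflect the spread between these samples alone.

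A punch takes whatever lies in its path. Septum and the anterior striatum, with the white matter of the corpus callosum and forceps between them and the cortex, lie behind and beside the medial prefrontal cortex. Thalamus lies farther back. Striatal projection neurons answer dopamine and adenosine through receptors that raise or lower cyclic AMP, and most members described here belong to that pathway. Tissue of a region carries many of that region's genes at once, so each member was set beside a list of other genes of its region.

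Each array had 20012 to 21038 detected probes of 45281, and all pairs of arrays correlated at r = 0.985 to 0.994 across probes. IMO 1 and No stress 6 were the highest pair for 858 of the 11018 genes tested (7.79%) and the lowest pair for 1171 (10.6%). The other 27 pairs of arrays were highest for 166 to 773 genes, not far below, and lowest for 144 to 632. In limma's array weights, IMO 1 had 0.546, No stress 6 had 0.643 and No stress 7 had 0.641, so No stress 7 was weighted as low as No stress 6. Comparisons of the groups at the members are given with and without IMO 1 and No stress 6. Prkcd, Zic1 and Ppp1r1b were themselves highest on this pair, so leaving it out is no independent check. Values are log2 of the deposited, already normalized signal, on which probes reached a detection p of 0.05 at 6.05 to 6.13. A second deposited table holds other values under the same array names, and the sources do not settle which of them belongs to the labelled arrays.

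Zic1, a zinc finger transcription factor of septum and other midline structures, had the widest range of the members. Its log2 signal was 11.86, 9.50, 8.88 and 9.38 on IMO 1 to 4, and 9.70, 11.63, 8.81 and 9.63 on No stress 5 to 8. The gene was high on IMO 1 and No stress 6, at 4.9 and 4.2 times its median over the 8 arrays. Its range was 3.05 over all arrays and 0.90 over the other 6.

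Prkcd, protein kinase C delta, a marker of thalamic relay neurons that is also expressed in lateral septum, showed the same arrays. Its log2 signal was 10.10, 7.67, 7.48 and 7.61 in the IMO group and 7.69, 10.30, 7.37 and 7.57 in the No stress group. IMO 1 and No stress 6 lay at 5.48 and 6.32 times the median, and the other 6 arrays spanned 0.32. A typical gene tested had a range of 0.46 (median), and the 90th percentile was 0.85.

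Because Prkcd and Zic1 were high on the same arrays, their upstream DNA was searched for letters they share. The 250 bases before the RefSeq start of Zic1 (GRCm38.p6, chr9:91365769-91366018, minus strand) are printed 5′ to 3′, with matches to CACGTG and GGGCGG in capitals.
Zic1 upstream: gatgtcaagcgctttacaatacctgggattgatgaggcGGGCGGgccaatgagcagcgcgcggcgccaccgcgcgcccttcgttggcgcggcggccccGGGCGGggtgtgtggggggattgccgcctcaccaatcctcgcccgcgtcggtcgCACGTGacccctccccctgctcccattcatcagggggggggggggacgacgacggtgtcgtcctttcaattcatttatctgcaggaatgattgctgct
The stretches of 30 bases that hold CACGTG in both genes are set side by side, Zic1 at chr9:91365849-91365878 and Prkcd at chr14:30626297-30626326, both on the minus strand.
Zic1 window: ccgcgtcggtcgCACGTGacccctccccct
Prkcd window: ggacccccagctCACGTGGGCGGagcttcg
CACGTG, the letters of an E-box, begins 98 bases before the start of Zic1 and 106 bases before the first of 2 starts of Prkcd, and the window of its second start holds no match. In Prkcd it overlaps GGGCGG, the letters of a GC box, by 1 base.

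The motifs were chosen with these letters in view, and both strands were searched. RefSeq upstream windows were given for 7 of the 9 members, with 10 starts in all. CACGTG was in 2 of the 10, against 6.02% of all 32851 starts of the same length. GGGCGG or its complement CCGCCC was in 7 of the 10, against 32.7%, and TGACGTCA, the cyclic AMP response element, was in 0 of the 10, against 1.55%. A match describes letters only, and no binding was measured.

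Tcf7l2, a transcription factor of Wnt signalling and a defining gene of thalamus, did not follow Prkcd. At its brightest probe it stood at 7.87, 7.39, 7.40 and 7.43 on IMO 1 to 4 and at 7.85, 7.59, 7.55 and 7.71 on No stress 5 to 8. IMO 1 was the highest array by 0.02 over No stress 5, and No stress 6 lay among the rest, so the range of 0.48 was that of a typical gene. A dimmer probe, detected on 4 arrays, read 6.50, 5.76, 5.75 and 5.34 against 6.30, 6.19, 6.26 and 5.79. The other 4 Tcf7l2 probes were detected on 0 arrays.

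**Figure D1:**
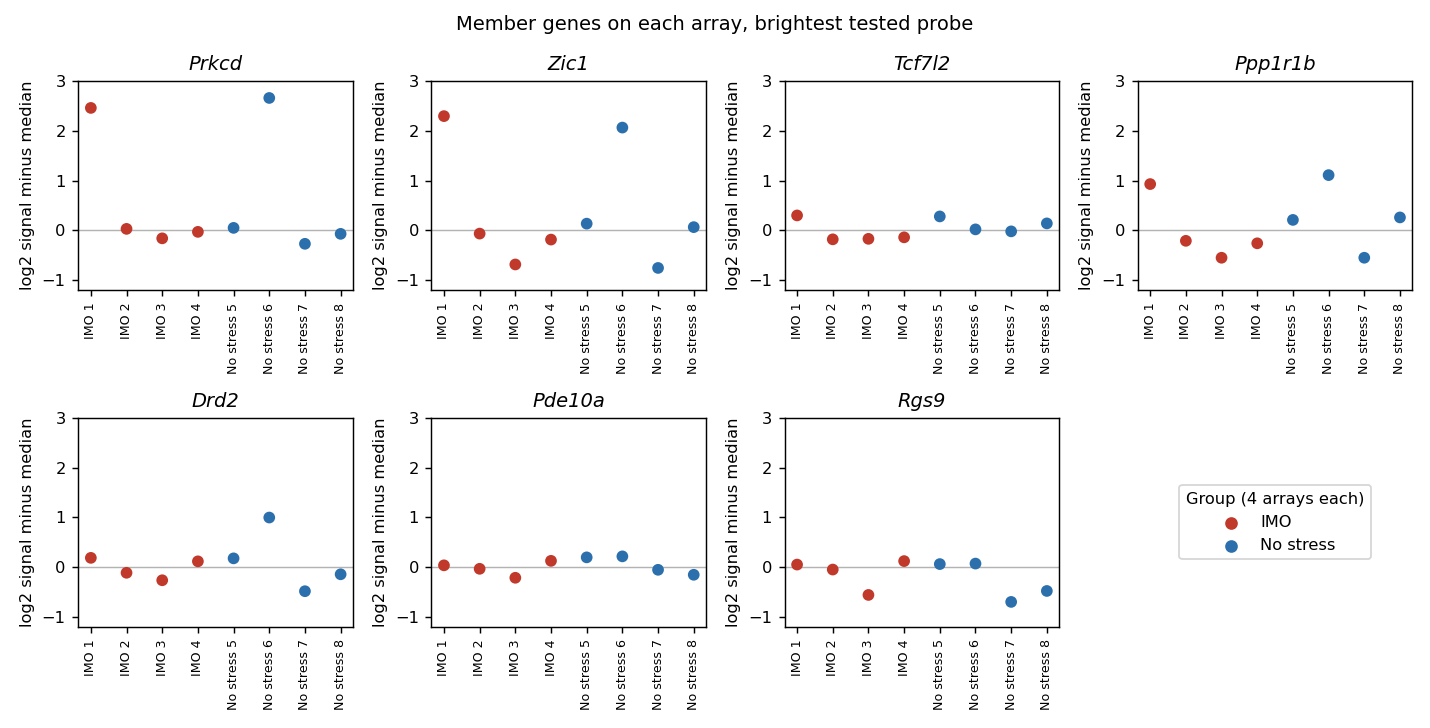
Log2 signal of each tested member gene on each array minus that gene's median over the 8 arrays, at its brightest tested probe; each point is 1 array, red for IMO and blue for No stress. Prkcd and Zic1 stand over 2 log2 units up on IMO 1 and No stress 6, Ppp1r1b about 1 unit, while Tcf7l2, Pde10a and Rgs9 do not separate these arrays.

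Among the striatal members, the dopamine receptor came first in the pathway. Drd2, the receptor of indirect pathway neurons that lowers cyclic AMP, had log2 signals of 6.97, 6.67, 6.52 and 6.90 in the IMO group and 6.96, 7.78, 6.30 and 6.64 in the No stress group. It was high on No stress 6, at 2 times its median, and on IMO 1 it was within 0.01 of No stress 5. Adora2a, the adenosine receptor of the same neurons, has no probe named for it in the annotation used here.

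The members that make and break cyclic AMP varied little between arrays. Adcy5, the main adenylyl cyclase of striatum, was detected on 1 array, IMO 1, at 6.06, and its other arrays lay between 5.54 and 5.89, under the detection edge. Pde10a, the phosphodiesterase abundant in striatal projection neurons, read 6.96, 6.89, 6.71 and 7.05 on IMO 1 to 4 and 7.12, 7.14, 6.87 and 6.77 on No stress 5 to 8. Its range of 0.43 was below the median of all genes, and its second probe was detected on 0 arrays.

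Ppp1r1b encodes DARPP-32, the phosphatase inhibitor that carries the dopamine signal in striatal neurons and is also made in deep cortical neurons. Its brightest probe read 10.34, 9.20, 8.86 and 9.15 in the IMO group and 9.62, 10.52, 8.86 and 9.67 in the No stress group. IMO 1 and No stress 6 were again highest, at 1.9 and 2.15 times the median, a smaller step than for Prkcd and Zic1. The second probe gave 7.79, 6.80, 6.94 and 6.71 against 7.26, 7.58, 6.93 and 7.20. The third, near the detection edge, gave 6.72, 6.38, 6.12 and 6.30 against 6.27, 6.53, 6.25 and 6.45. All 3 probes had the same pair of arrays highest.

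Rgs9, whose long form shortens dopamine receptor signalling in striatum, did not mark those arrays. At its brightest probe it read 9.44, 9.34, 8.83 and 9.51 on IMO 1 to 4 and 9.45, 9.46, 8.69 and 8.91 on No stress 5 to 8. Low arrays, IMO 3, No stress 7 and No stress 8, made its range of 0.82. A second probe, detected on 7 arrays, read 6.90, 6.76, 6.46 and 6.64 against 7.02, 6.74, 5.85 and 6.37 and was lowest on the same 3 arrays.

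The members thus fell into those high on both IMO 1 and No stress 6 (Zic1, Prkcd and Ppp1r1b), Drd2, high on No stress 6, and those that did not separate these arrays (Tcf7l2, Pde10a and Rgs9). Across the 8 arrays the deviations of Prkcd and Zic1 correlated at r = 0.97, and over the 6 arrays without that pair at 0.89. Zic1 and Ppp1r1b gave 0.96 and 0.93. Prkcd and Tcf7l2, both listed as thalamic, gave 0.41 and 0.24. Pde10a and Rgs9, both striatal, gave 0.80 with and without those arrays. These coefficients describe arrays that share the same normalization, and the second of each 2 values is the one without IMO 1 and No stress 6.

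Other septal genes were high with Zic1. Of 9 septal genes listed, 6 were tested, and 5 of them (Zic1, Zic2, Zic4, Trpc4 and Nts) had IMO 1 and No stress 6 as their highest arrays, where 7.79% of all genes did. Zic1 itself counts among these 5. Zic2, a relative of Zic1, read 7.93 on IMO 1 and 8.44 on No stress 6 against 6.19 to 6.68 on the other 6 arrays, although only 1 of its 2 tested probes had this pair highest. Zic4, another relative, read 8.80 and 8.66 against 6.64 to 7.55.

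The cation channel Trpc4, strong in lateral septum, read 8.28 and 8.55 against 7.07 to 7.56. Nts, the neuropeptide neurotensin, was detected on 5 arrays, the pair included, and met the filter of at least 4 only with it. Its signal was 8.40 and 6.81 against 5.95 to 6.38. The exception was Crhr2, a receptor for urocortins, at 5.95 and 6.17 against 5.90 to 6.35, near the detection edge. Averaged over the tested septal genes, Zic1 included, IMO 1 lay 1.31 and No stress 6 1.15 above the gene medians. The other 6 arrays lay between -0.28 and 0.11.

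The thalamic list did not move as a whole. Of its 15 genes, 10 were tested. Of these, 2 had the pair highest, Prkcd and the calcium channel gene Cacna1g, where 7.79% of all genes did. Cacna1g had it at 1 of its 2 tested probes, with 9.14 on No stress 6 against 9.13 on IMO 4. Gbx2, Lef1, Synpo2, Plekhg1 and Lhx9 were detected on 0 arrays. Slc17a6, the vesicular glutamate transporter of thalamic relay neurons, read 8.97 on IMO 1 and 10.30 on No stress 6 against 8.80 to 9.37 elsewhere, so it was high on No stress 6 alone. Calb2, calretinin, was high on IMO 1 alone, at 10.42 with 9.61 on No stress 6 and 9.11 to 9.74 elsewhere.

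Ramp3, a receptor activity modifying protein, was low on IMO 1, at 6.87 against 7.63 to 8.05 on the other 7 arrays. The mean deviation of the thalamic list, Prkcd included, was 0.15 on IMO 1 and 0.42 on No stress 6, against -0.07 to 0.07. Besides Prkcd, Cacna1g was the only tested gene of the thalamic list with the pair highest. Genes of several other lists had it highest as well, among them the septal, striatal, cholinergic, myelin and neuroblast lists. Which tissue the Prkcd signal came from was not tested.

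The striatal lists differed among themselves. Of 15 shared projection neuron genes tested, 6 had the pair highest (Ppp1r1b, Gnal, Rasd2, Rarb, Bcl11b and Syndig1l), and Foxp1 had it lowest. Over all genes, 7.79% had it highest and 10.6% lowest. Bcl11b, at 11.62 on No stress 6, was close to No stress 5 at 11.57. Gnal, the G protein subunit that couples striatal receptors to adenylyl cyclase, read 9.02 on IMO 1 and 8.11 on No stress 6 against 7.37 to 7.74, with the pair highest at 2 of its 3 tested probes. Rarb, a retinoic acid receptor, read 8.51 and 7.69 against 7.07 to 7.42. Foxp1, a transcription factor of striatum and cortex, read 8.03 and 8.32 against 8.81 to 9.06.

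In the direct pathway list, Tac1, the precursor of substance P, read 9.18 and 9.06 against 7.40 to 8.24. Drd1, the dopamine receptor that raises cyclic AMP, went the other way on IMO 1, at 7.97 against 8.20 to 9.04 on the other 7 arrays. Pdyn, prodynorphin, was lowest there as well, at 9.49 against 10.40 to 10.75. Penk, proenkephalin of the indirect pathway, read 8.31 and 8.04 against 6.48 to 7.39. In the indirect pathway list both tested genes, Drd2 and Penk, had the pair highest, with a mean deviation of 0.77 on IMO 1 and 1.04 on No stress 6. For the shared list the means were 0.37 and 0.27, and for the 4 tested direct pathway genes -0.13 and 0.20. Members count toward these values, Ppp1r1b, Pde10a and Rgs9 in the shared list and Drd2 in the indirect one. The filter of detection on at least 4 arrays left Isl1 out of the direct pathway mean and Sp9 out of the indirect one. Both genes were detected on IMO 1 and No stress 6 alone.

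**Figure D2:**
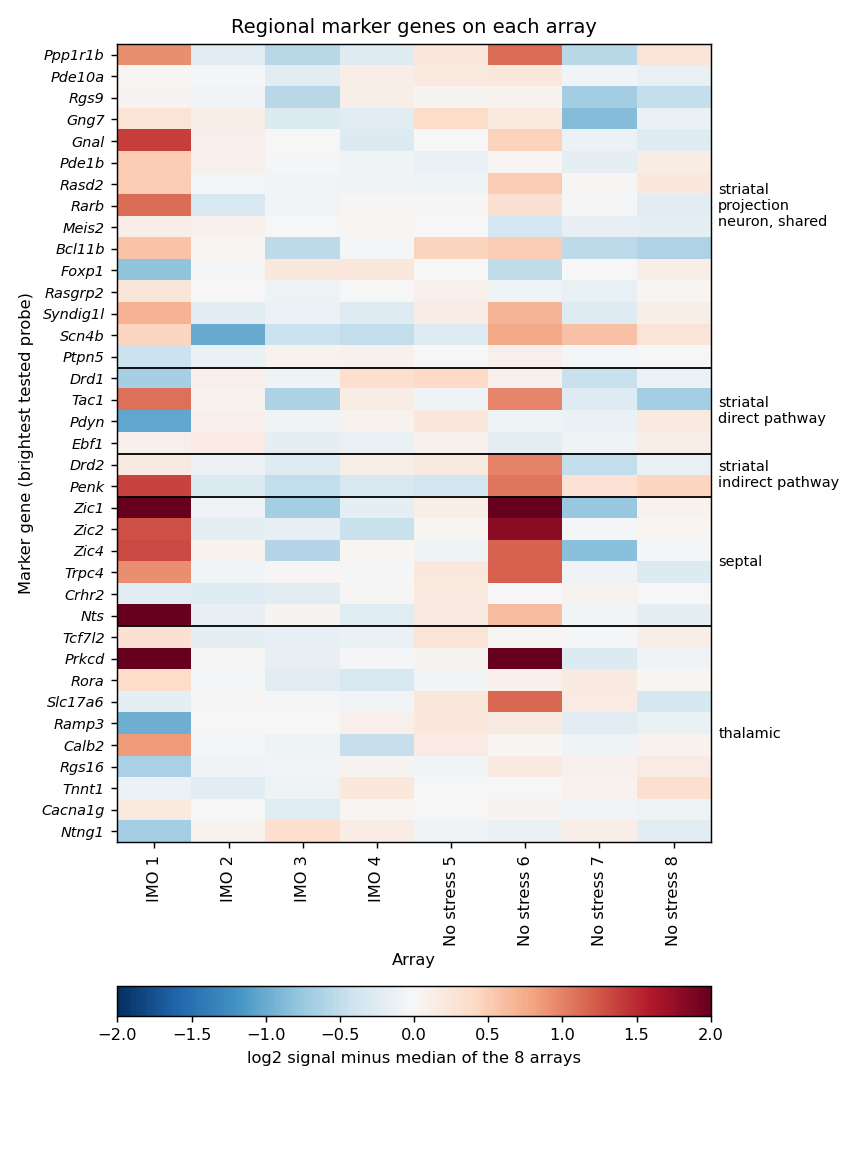
Heat map of log2 signal minus the gene's median over the 8 arrays (colour, cut at 2 on either side) for every tested gene of the striatal, septal and thalamic lists (rows) on each array (columns). The septal rows apart from Crhr2 are high on IMO 1 and No stress 6, whereas in the thalamic block Prkcd alone is high by over 2 on both.

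Of all probes, 111 were detected on IMO 1 and No stress 6 and on no other array, and for the other 27 pairs of arrays this number was 11 to 72. Isl1, a transcription factor of developing striatal direct pathway and of cholinergic neurons, read 8.58 and 8.35 there and at most 5.77 elsewhere. Slc10a4, a vesicular transporter of cholinergic and monoamine neurons, read 8.47 and 7.50 against at most 5.74. Lbhd2 had the largest step, 8.99 and 9.38 against at most 5.88. These genes were picked after their values were seen.

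Markers of basal forebrain cholinergic neurons went partly along. Of 4 tested, 3 (Chat, Ngfr and Ecel1) had the pair highest, where 7.79% of all genes did. Chat, choline acetyltransferase, read 6.89 and 6.25 against 5.85 to 6.17. It was detected on 4 arrays, the pair included, so it met the filter of at least 4 only with the pair. Ecel1, an endopeptidase-like protein, read 8.95 and 7.32 against 5.78 to 6.71. The mean deviation of the list was 1.04 on IMO 1 and 0.38 on No stress 6.

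Myelin genes were high on the arrays where Zic1 was high, and cortical genes went partly the other way. Of 12 myelin genes tested, 11 had the pair highest, where 7.79% of all genes did. Among these, Aspa was detected on 4 arrays, the pair included, and met the detection filter only with it. The list's mean deviation was 1.11 on IMO 1 and 1.22 on No stress 6 against -0.38 to 0.24 on the other arrays. Mobp, a myelin protein gene, read 11.18 and 11.05 against 9.04 to 9.61. By group, the list's mean lay between -0.38 and 1.11 in IMO and between -0.20 and 1.22 in No stress. Its part in the results on the members was not tested.

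All 17 cortical excitatory genes on the array passed the detection filter, so markers of the labelled tissue were present. Slc17a7, the cortical vesicular glutamate transporter, read 12.71 on IMO 1 and 12.28 on No stress 6 against 12.58 to 13.07. In 4 genes (Neurod6, Cux2, Lamp5 and Etv1) the pair was lowest, as it was in 10.6% of all genes. Cux2, a transcription factor of upper cortical layers, read 7.85 and 8.04 against 9.15 to 9.80.

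A few cortical genes differed between IMO 1 and No stress 6. Fezf2, a transcription factor of deep projection neurons, was low on IMO 1 at 9.70 and ordinary on No stress 6 at 11.51, against 11.01 to 11.88 elsewhere. Pou3f1 was likewise low on IMO 1 alone, at 8.00 and 9.14 against 8.76 to 9.40. Ntsr1 was also lowest on IMO 1, by less, at 7.74 and 8.12 against 7.84 to 9.05. The deep layer genes Etv1 and Tbr1 did not differ in this way. Etv1 was lowest on both at 10.28 and 10.39 against 10.69 to 11.07, and Tbr1 read 9.63 and 9.73 against 9.42 to 10.26. The cortical list lay at -0.36 on IMO 1 and -0.25 on No stress 6, against -0.04 to 0.13. In whole tissue, fewer cells of a type and less RNA per cell cannot be told apart.

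Other neighbouring tissues differed in their share of genes with the pair highest, which was 7.79% over all genes. Of 6 neuroblast genes tested, 4 had the pair highest (Dlx1, Dlx2, Dlx6 and Sp8), with a mean deviation of 0.35 on IMO 1 and 0.68 on No stress 6. Sp8 read 7.49 and 7.75 against 5.95 to 6.43. At their brightest probes, none of the 5 ependymal genes and 1 of the 11 meningeal genes (Lum, at 6.77 on No stress 6 and on No stress 8) had the pair highest. At dimmer probes, ependymal Rarres2 had it highest at 2 of its 3 tested probes and meningeal Dcn at 1 of 2. In the choroid plexus list it was 1 of 4 (Clic6, 7.71 and 8.64 against 5.59 to 6.92), and in the olfactory bulb list 1 of 2 (Cdhr1, 9.49 and 8.43 against 7.64 to 8.40). Ttr, of widest range in the choroid plexus list at 5.25, was highest on No stress 7 at 11.57 and No stress 5 at 10.60. It read 8.59 on IMO 1 and 8.34 on No stress 6. Otx2 of the choroid plexus list was detected on the pair alone and so was not tested. The hypothalamic, midbrain and habenular lists had 1 tested gene each. Of these, Pmch (6.75 and 6.83 against 5.90 to 6.23) and Ddc had the pair highest, and Tac2 did not. Clic6, detected on 5 arrays, and Pmch, detected on 4, met the detection filter only with the pair.

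**Figure D3:**
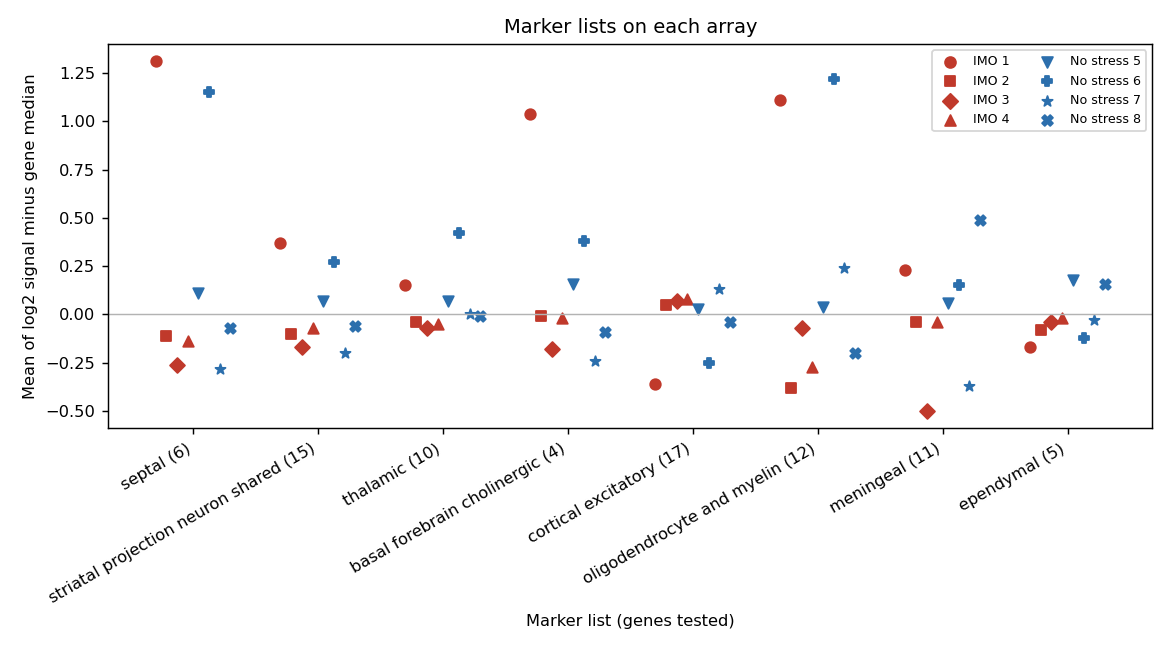
Mean over a list's tested genes of log2 signal minus gene median (vertical axis) for 8 marker lists (horizontal axis, genes tested in parentheses); each symbol is 1 array, red for IMO and blue for No stress. IMO 1 and No stress 6 lie over 1 unit up in the septal and myelin lists and below 0 in the cortical list, with smaller steps in the thalamic and shared striatal lists.

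The dopamine and adenosine cAMP signalling list put the striatal members among the other genes of their pathway. Of 24 genes, 21 were tested. At the probe with the strongest signal, 3 of them (Drd2, Gnal and Ppp1r1b) had the pair highest, where 7.79% of all genes did. Drd2 counts here because on IMO 1 it exceeded No stress 5 by 0.01. The list's mean deviation was 0.10 on IMO 1 and 0.13 on No stress 6. Those 3 genes were high on No stress 6, while the phosphodiesterase Pde10a and the regulator Rgs9 did not stand out there. Pde10a read 7.14 on No stress 6 and 7.12 on No stress 5, and Rgs9 read 9.46 on No stress 6 and 9.51 on IMO 4.

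The genes most like each member across the 8 arrays were taken by Pearson's r among brightest probes, with all arrays in common. Ccn2, a matricellular growth factor, headed the lists of both Prkcd (r = 0.982) and Zic1 (r = 0.991), and over the 6 arrays without the pair the values were 0.914 and 0.915. After Ccn2, the genes most like Zic1 were Carhsp1 (0.987) and Cachd1 (0.985). For Prkcd they were Trf, transferrin of oligodendrocytes (0.98), and Slc32a1, the vesicular GABA transporter (0.978). Without the pair these were -0.472 and 0.676, so the likeness of Trf rested on those 2 arrays.

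Ppp1r1b was most like Gab1 (0.982), Gstt3 (0.978) and Csrp1 (0.978), at 0.944, 0.972 and 0.932 without the pair. Tcf7l2 was most like Epb41l1 (0.972), Npr2 (0.967) and Snx1 (0.966). Drd2 was most like Rbm4b (0.979), D930048N14Rik (0.953) and Tprkb (0.953). Pde10a was most like Dsg2 (0.947), Prss8 (0.939) and Itfg2 (0.939), and Rgs9 was most like Acacb (0.986), Immp1l (0.968) and P4ha2 (0.958). No gene was shared among the lists of the last 5 members named.

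The comparison of immobilized with unstressed mice gave no call for any member. None of the 11 member probes passed an adjusted p of 0.05 (limma with Benjamini-Hochberg adjustment over 20531 probes; 0% of all probes called), and adjusted p ran from 0.671 to 0.996. At an unadjusted p under 0.05 it was 0 of 11, where 10.6% of all probes were called, 5.19% as higher and 5.44% as lower in IMO. The groups overlapped at all 11 probes, where 6.92% of all probes did not overlap. Of the 11 probes, 3 were higher and 8 lower in IMO, with a median difference of -0.08 against -0.01 over all genes.

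For Prkcd the group means were 8.22 ± 1.26 (SD, n = 4) in IMO and 8.23 ± 1.39 (SD, n = 4) in No stress. The difference was -0.02 with a standard error of 0.707 (adjusted p = 0.996 by limma with Benjamini-Hochberg adjustment, exact two-sided permutation p = 0.971). Since each group held 1 high array, the means were level and the errors wide. Without IMO 1 and No stress 6 the difference was 0.05 with a standard error of 0.113, smaller because the highest arrays were left out.

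Zic1 gave 9.90 ± 1.33 (SD, n = 4) against 9.94 ± 1.20 (SD, n = 4), which makes a difference of -0.04 (standard error 0.677, adjusted p = 0.992 by limma, exact permutation p = 0.914). Without that pair it was -0.13 with a standard error of 0.239. Ppp1r1b gave 9.38 ± 0.65 (SD, n = 4) against 9.66 ± 0.68 (SD, n = 4), which makes a difference of -0.28 (standard error 0.361, adjusted p = 0.837 by limma, exact permutation p = 0.571). Without the pair it was -0.31 with a standard error of 0.203. These standard errors leave room for sizeable differences in either direction.

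Tcf7l2 was 7.52 ± 0.23 (SD, n = 4) against 7.68 ± 0.14 (SD, n = 4), which makes a difference of -0.15 (standard error 0.123, adjusted p = 0.704 by limma, exact permutation p = 0.286). Without the pair it became -0.30 with a standard error of 0.105, an unadjusted p of 0.0181 and an adjusted p of 0.372 (limma, Benjamini-Hochberg). The dimmer Tcf7l2 probe went from -0.30 to -0.50 (adjusted p = 0.347 by limma without the pair). Neither passed the threshold. The smallest p that the exact test allows for 4 against 4 arrays is 0.0286.

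Drd2 was 6.76 ± 0.21 (SD, n = 4) against 6.92 ± 0.63 (SD, n = 4), and the difference of -0.16 (standard error 0.26) became 0.06 without the pair. Pde10a differed by -0.08 with a standard error of 0.112, and Rgs9, at 9.28 ± 0.31 (SD, n = 4) against 9.13 ± 0.39 (SD, n = 4), by 0.15 with a standard error of 0.199. Without the pair they differed by -0.04 and 0.21. None of the Drd2, Pde10a and Rgs9 differences exceeded the spread within groups. With the pair left out, 3 of the 11 member probes (both tested ones of Tcf7l2 and the second of Ppp1r1b) had an unadjusted p under 0.05, where 11.5% of all probes did, and 0 of 11 passed adjustment (limma, adjusted p from 0.347 to 0.939; 0.00487% of all probes called).

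In the cAMP signalling list, 10 genes were higher and 11 lower in IMO, with a median difference of -0.02. Of its 21 tested genes, 0 had an unadjusted p under 0.05 (limma), where 10.6% of all probes did, and 0 passed adjustment. Without the pair, 14 were higher and 7 lower (median 0.06). The septal list had 2 higher and 4 lower (median -0.04), the thalamic list 3 and 7 (median -0.14) and the shared striatal list 8 and 7 (median 0.06). Without the pair these 3 lists kept their counts, with medians of -0.11, -0.06 and 0.02. At an unadjusted p under 0.05 (limma) were Crhr2 (-0.23) of 6 septal genes and 0 of 10 thalamic genes. Of 15 shared striatal genes, Meis2 (0.24) and Scn4b (-0.71) were. The share over all probes was 10.6%, and none of these genes passed adjustment.

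**Figure D4:**
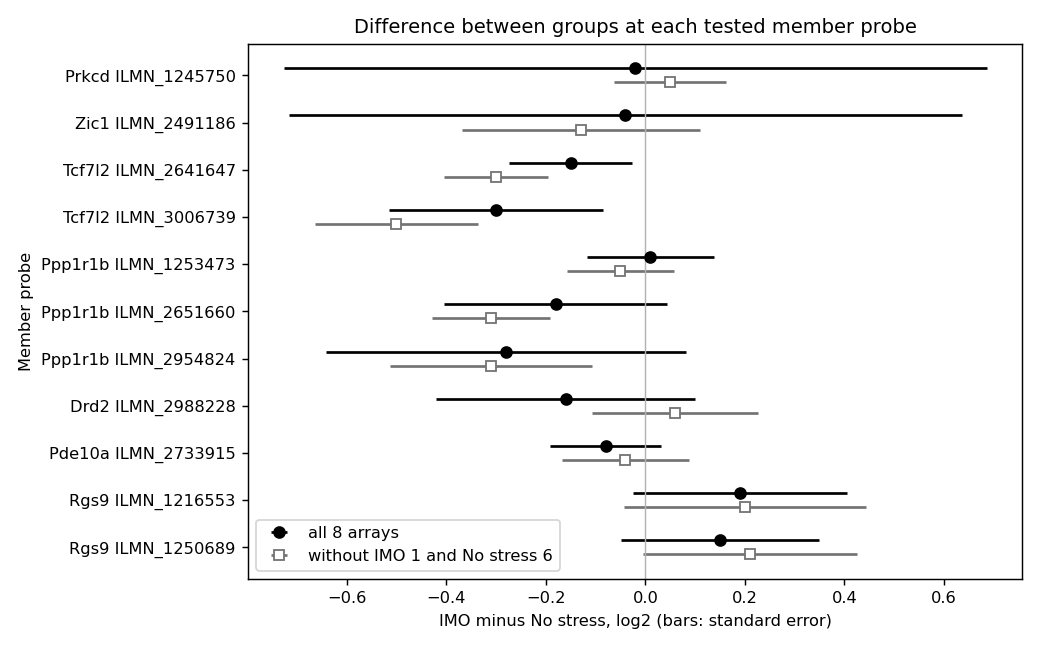
IMO minus No stress difference in log2 signal (horizontal axis, bars are standard errors from limma) at each of the 11 tested member probes (vertical axis), with all 8 arrays (filled circles) and without IMO 1 and No stress 6 (open squares). Leaving out those arrays, the highest for Prkcd, was bound to narrow its error, here from 0.707 to 0.113, and moves the Tcf7l2 probes to -0.30 and -0.50.

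The second deposited table put part of the high signals on other array names. Prkcd there read 7.57, 7.29, 9.42 and 7.31 on IMO 1 to 4 and 9.81, 8.58, 7.72 and 7.56 on No stress 5 to 8. Zic1 read 9.22, 8.56, 10.13 and 9.42 against 11.70, 10.99, 9.91 and 9.17. No stress 5 was highest for both genes, followed by IMO 3 for Prkcd and No stress 6 for Zic1, so both groups held a high array for Prkcd, while the highest pair for Zic1 lay in No stress. In this table the differences came to -0.52 for Prkcd, -1.11 for Zic1 and -0.62 for Ppp1r1b (adjusted p = 0.981 each by limma), so the near-level means of Prkcd and Zic1 belong to the value table.

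Ppp1r1b in the second table read 9.16, 9.23, 9.07 and 9.17 against 9.83, 10.79, 9.05 and 9.46, highest on No stress 6. IMO 1, high for all 3 genes in the value table, was not high for any of them there. Columns of the same name correlated at 0.950 to 0.991 across the tables, and 0 of the 8 columns was best matched by the column of its own name. On No stress 6 the second table still lay above the gene median, by 0.94 for Prkcd, 1.32 for Zic1 and 1.59 for Ppp1r1b. The statement that IMO 1 and No stress 6 together carry these signals therefore holds for the value table alone.

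**Figure D5:**
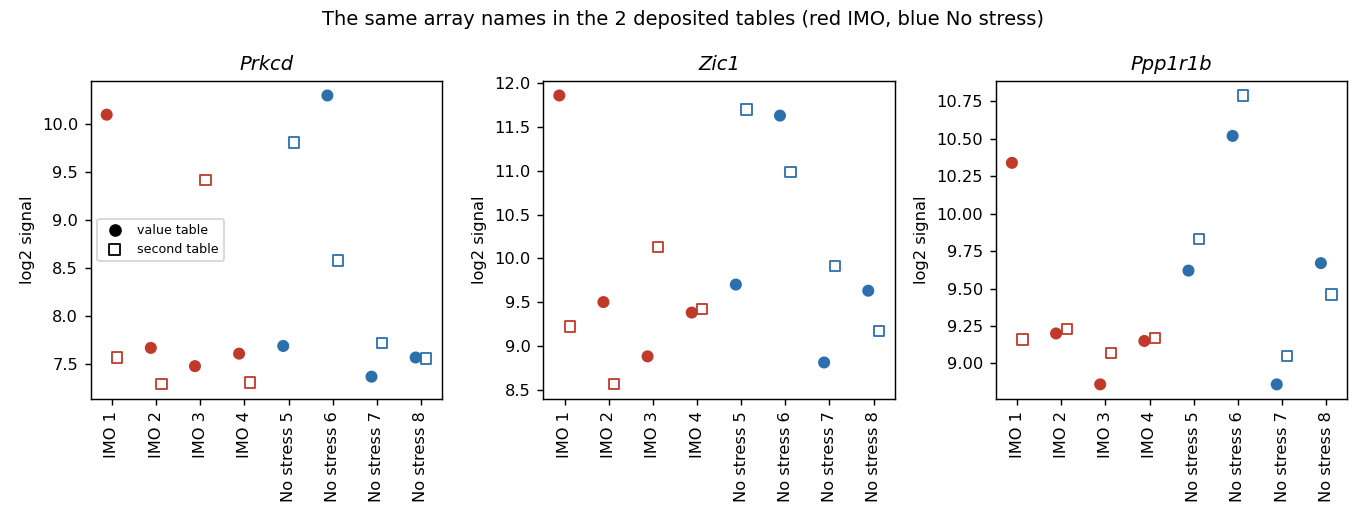
Log2 signal (vertical axis) of Prkcd, Zic1 and Ppp1r1b on each array name (horizontal axis) in the value table (filled circles) and in the second table (open squares), red for IMO and blue for No stress. Prkcd on IMO 1 stands at 10.10 in the value table and at 7.57 in the second.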

How the data were processed

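RNA was purified with RNeasy columns and labelled as biotinylated cRNA, per the labels' protocols. Deposited were 2 tables of linear probe intensity and, per probe and array, the authors' detection p-value. The processing after scanning is not stated in the labels, but sorted columns nearly coincide (median log2 gap 0.0011), so no further normalization was applied. In the value table the detection p never rose with signal (0% of steps), while in the second it rose at 33.4% to 36.8% of steps, so the value table was used. No columns were left unmapped (0).

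The log2 of the deposited intensities was used, with no pseudocount (lowest intensity 26.9). Probes with detection p under 0.05 on at least 4 of 8 arrays (20531) were fitted with limma 3.58.1 in R 4.3.3 (lmFit, eBayes, no covariates), with Benjamini-Hochberg adjustment. Precision is limited by the number of arrays. The fit was checked on simulated data. Of all probes, 34885 have 1 symbol in the platform annotation, 18 several and 10378 none, and 0 symbols changed on update through Entrez gene ID.

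Members and lists were chosen with earlier results of these data known. Named genes were all members, up to 4 genes of widest range per list plus those needed to show a region as absent, and the 3 genes most like each member. Genes named for their place in a count, Trpc4, Isl1, Slc10a4, Lbhd2, Nwd2 and the genes that stood apart within a group were named after their values were seen. A gene stood for its brightest tested probe, by mean signal. Sequences are RefSeq's, GRCm38.p6. Alternatives covered probe filters, scaling, background correction, variance settings, averaging a gene's probes, array weights (statmod 1.5.0), the second table and left-out arrays.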

Additional observations from a re-analysis of the deposited data

Results flagged for a closer look

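Within a group of 4 arrays, an array was listed where its gap to the nearest other array took more than the critical share of the group's range (Dixon). This held in 21 of the 118 gene and group combinations examined, and the genes include those of widest range in each list, so a raised share is built into their choice. Over all genes tested it was 1339 of 22036 (6.08%), where chance gives about 5%. IMO 1 was the array in 15, No stress 6 in 4, IMO 4 in 1 and No stress 7 in 1.

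Among the members, Prkcd stood apart on IMO 1 at a log2 signal of 10.10, against 7.48 to 7.67 on the other IMO arrays. It also stood apart on No stress 6 at 10.30, against 7.37 to 7.69. Tcf7l2 on IMO 1, at 7.87 against 7.39 to 7.43, met the criterion with a far smaller step.

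Septal and striatal genes high on IMO 1 were Zic2 at 7.93, Nts at 8.40 and Penk at 8.31. Zic2 also stood apart on No stress 6, at 8.44. Other genes high on IMO 1 were Ecel1 at 8.95, Mobp at 11.18, Mal at 9.91, Clic6 at 7.71, Sp8 at 7.49 and Dlx2 at 7.28. On No stress 6, Mag stood at 10.59 and Dlx1 at 9.99.

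Genes low on IMO 1 were Pdyn at 9.49, Ramp3 at 6.87, Fezf2 at 9.70 and Cux2 at 7.85. The remaining cases concerned other arrays. Ttr, the transthyretin of choroid plexus, was low on IMO 4 at 6.32 against 8.59 to 9.05. Lhx8 was low on No stress 7 at 5.88 against 6.26 to 6.27.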

How the results depend on the processing

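The count of probes past an adjusted p of 0.05 was 0 and became 1 without IMO 1 and No stress 6 together (limma; Nwd2, difference 1.11). No member passed an adjusted p of 0.05 under any setting run. Of the differences of single members, 112 kept their direction and 14 reversed; the cause was not tested. Leaving out each array in turn moved Prkcd between -0.64 and 0.67, Zic1 between -0.69 and 0.52, Ppp1r1b between -0.60 and 0.0037, and Drd2 between -0.36 and 0.13. With both arrays out, Prkcd came to 0.05 and Drd2 to 0.06. In the second table, Tcf7l2 came to 0.01, Rgs9 to -0.21, Zic1 to -1.11, Prkcd to -0.52 and Ppp1r1b to -0.62, while the range over arrays was 0.95 for Drd2 (1.48 in the value table) and 0.63 for Pde10a (0.43). No paired analysis was possible because the replicate numbers, 1 to 8, are not shared between the groups. Slide as a block was not run, since no slide or scan labels were in the files used. The list counts without IMO 1 and No stress 6 were added after seeing the data. Signals near the detection edge carry compressed differences.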
